A study of Homo sapiens with 6 samples.

Results

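Antisense genes whose symbol ends in -AS1 were examined in MIA PaCa-2, a human line grown from a carcinoma of the pancreas, and each was set beside its sense partner, the gene whose symbol stands before the hyphen. Members were chosen by their counts, as the autosomal AS1 genes with 10 or more counts in at least 3 of the 6 libraries. The count table held 1204 autosomal AS1 genes among 35716 genes, and 394 of them met this rule. Of the 394, 24 met the rule through the triptolide libraries alone, against 0 through the untreated libraries alone. The members with the fewest counts were STPG3-AS1, PNN-AS1 and GAS8-AS1, with 39, 46 and 47 counts over the 6 libraries. Just outside the rule stood MAP3K5-AS1, DNAJC9-AS1 and CFLAR-AS1, with 77, 71 and 70 counts and only 2 libraries at 10 or more.

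The libraries fell into 2 groups of 3, wild-type MIA PaCa-2 cells exposed to 10 nM triptolide for 24 h and wild-type MIA PaCa-2 cells kept in medium without an agent. Triptolide is a diterpene triepoxide that binds the XPB subunit of the general transcription factor TFIIH. RNA was poly(A)-selected before sequencing, so only polyadenylated antisense transcripts were sampled. Nothing in the labels states that replicate libraries were grown as separate cultures, so the p-values cover library-to-library spread that could be technical.

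Natural antisense transcripts are copied from the strand opposite a named gene. Many start close to the promoter of that gene and run away from it, and others start inside or beyond the gene and run back across it. A few act on their partner in cis, some act elsewhere in the cell, and for most no function is known. The AS1 suffix records position only. The sources used here do not say whether the counting used strand, so reads of an AS1 gene and of an overlapping partner cannot be told apart. Of the 389 members with a partner in the table, 290 had exons overlapping those of the partner on the opposite strand in GENCODE 29. Another 73 overlapped the partner gene without shared exon positions, 24 stood head to head with it and 2 tail to tail. The partner was absent from the table for ENTPD3-AS1, TRG-AS1, ADIRF-AS1, HOXB-AS1 and ZNF295-AS1.

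The start regions of 3 members are printed as examples: NAXD-AS1 had the largest fold change of all tested members, and RTCA-AS1 and VIM-AS1 were higher while their partners were lower. They are RefSeq windows on GRCh38.p14 from 250 bases before to 50 bases after the annotated start, written 5′ to 3′ on the minus strand, at chr13:110616304-110616603, chr1:100266125-100266424 and chr10:17229936-17230235 in the order given. Capitals mark matches on either strand to the GC box GGGCGG or the AP-1 site TGANTCA, in which N is any base.
NAXD-AS1: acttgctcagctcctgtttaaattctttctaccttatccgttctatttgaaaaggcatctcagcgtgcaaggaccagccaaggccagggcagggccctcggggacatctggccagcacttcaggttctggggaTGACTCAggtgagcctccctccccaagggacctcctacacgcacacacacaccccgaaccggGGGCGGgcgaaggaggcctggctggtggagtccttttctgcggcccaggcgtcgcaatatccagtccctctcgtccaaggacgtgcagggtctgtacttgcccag
RTCA-AS1: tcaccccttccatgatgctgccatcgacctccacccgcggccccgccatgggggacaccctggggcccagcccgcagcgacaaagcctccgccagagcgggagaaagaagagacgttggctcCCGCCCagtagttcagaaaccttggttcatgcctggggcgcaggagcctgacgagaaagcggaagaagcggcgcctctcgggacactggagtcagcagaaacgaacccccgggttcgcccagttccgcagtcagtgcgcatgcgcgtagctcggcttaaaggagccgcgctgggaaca
VIM-AS1: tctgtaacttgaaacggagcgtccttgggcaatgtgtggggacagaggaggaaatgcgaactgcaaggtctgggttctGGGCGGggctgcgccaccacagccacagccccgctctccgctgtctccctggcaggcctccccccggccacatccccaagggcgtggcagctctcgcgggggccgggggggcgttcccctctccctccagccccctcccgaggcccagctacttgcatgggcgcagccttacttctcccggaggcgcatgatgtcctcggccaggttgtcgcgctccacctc
Each window held 1 GC box, and that of NAXD-AS1 also held 1 AP-1 site. The RefSeq starts of NAXD-AS1, RTCA-AS1 and VIM-AS1 lay 893, 42 and 1744 bp from those of their partners. A window was available for 300 of the 394 members. The GC box occurred in 62.3% of these, in 57.1% of the 77 that belonged to members called higher, and in 44.6% of all 27305 windows. It occurred in 63.5% of the 208 windows of members not called. All windows include those of genes not tested here, so they are not matched to the members for expression. The AP-1 site occurred in 6.0% of the members' windows and in 7.76% of all windows. It was in 9.09% of the windows of members called higher and in 5.29% of those of members not called. A TATAAA box was found in 4.0% of the members' windows, against 12.0% of all windows. Also searched on both strands, the CCAAT box occurred in 30.0% of the members' windows and 35.7% of all windows. The E-box CACGTG occurred in 10.7% and 7.43%, and the heat shock element core GAANNTTC in 5.0% and 6.87%, of the same windows. The median GC content was 64.7% over the members' windows and 58.3% over all windows. Matches describe letters only.

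Many more AS1 genes were called higher than lower with triptolide. Of the 378 members that passed edgeR's filter on low counts, 93 (24.6%) were called higher and 5 (1.32%) lower at an adjusted p under 0.05, and 280 were not called. Over all 15202 genes tested, 10.0% were called higher and 5.82% lower. The median log2 fold change was 0.50 over the tested members, with quartiles at 0.08 and 0.96, and -0.004 over all genes tested, with quartiles at -0.28 and 0.34. A log2 fold change above 0 was found for 296 of 378 members (78.3%) and for 49.7% of all genes. In these bulk libraries, more cells that make an RNA and more of that RNA per cell cannot be told apart. Every scaling used here is relative, so a gene called higher was higher against the other RNA counted. Its amount per cell was not measured.

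**Figure D1:**
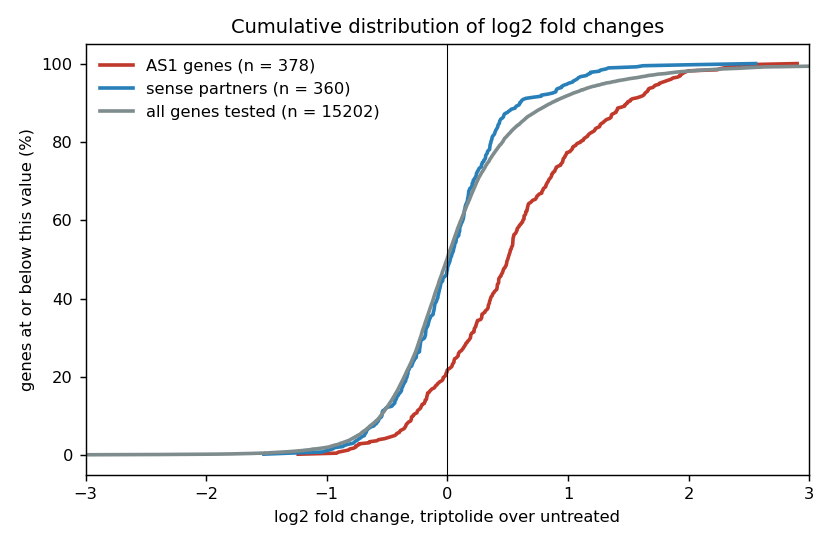
Cumulative share of genes, in percent, at or below each log2 fold change of triptolide over untreated cells, for the tested AS1 genes, their tested sense partners and all genes tested. The AS1 curve crosses its middle at 0.50, while those of the partners and of all genes cross near 0.

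The 93 members called higher had folds between 1.495 and 7.46, with a median of 2.64. Of the 378 tested members, 78 were called higher at 2-fold or more, against 1073 of all 15202 genes tested (7.06%). At least 4-fold was reached by 7 members, and the share of all genes at that fold was not taken. The 5 members called lower had levels 1.66 to 2.36 times as high in untreated cells. In every gene called in either direction the triptolide libraries did not overlap the untreated ones, and another 74 members not called were also separated with triptolide higher. In all, 167 tested members were separated with triptolide higher and 21 with triptolide lower, against 19.8% and 16.9% of all genes tested. The counts include the 24 members that entered through the triptolide libraries alone, of which 12 were called higher. Among the 276 members with at least 10 counts in every library, 65 (23.6%) were called higher and 5 lower, and their median log2 fold change was 0.43. Of the 13457 genes of the whole table at that level, 7.45% were called higher and 5.94% lower.

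AS1 genes were scarce, with a median of 1.83 CPM over the members and quartiles at 0.88 and 4.35 CPM, while the median over all genes tested was 15.7 CPM. The share of genes called higher depended on level, so members were read against genes of like abundance. Below 1 CPM, 21 of 101 members (20.8%) were called higher, beside 21.2% of protein-coding genes. Between 1 and 2 CPM the share was 27 of 103 members (26.2%) beside 20% of protein-coding genes, and between 2 and 5 CPM it was 16 of 86 members (18.6%) beside 16.3%. Between 5 and 10 CPM, 17 of 51 members (33.3%) were called higher beside 9.17% of protein-coding genes. At 10 CPM or more the share was 12 of 37 members (32.4%) beside 4.25% of protein-coding genes. Over all genes tested the shares were 20.6%, 19.7%, 18.3%, 10.9% and 4.59%, from the lowest level to the highest. The gap in the share called was widest above 5 CPM. The median log2 fold change of the members was above that of all genes at every level. It was 0.64 for members and 0.41 for all genes below 1 CPM, 0.54 and 0.32 between 1 and 2 CPM, and 0.41 and 0.17 between 2 and 5 CPM. It was 0.49 for members and -0.01 for all genes between 5 and 10 CPM, and 0.44 and -0.08 at 10 CPM or more. Any tested members among the 24 that met the count rule through the triptolide libraries alone are included, a choice that favours higher calls. Shares and medians without them were not taken. All of these values are descriptions and were not tested.

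**Figure D2:**
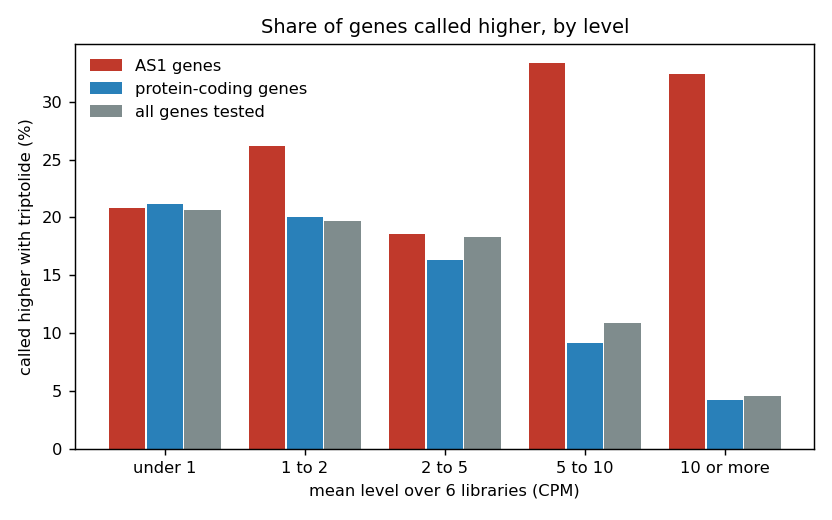
Percent of genes called higher with triptolide (edgeR, adjusted p under 0.05) by mean level over the 6 libraries in CPM, for AS1 genes, protein-coding genes and all genes tested. Below 5 CPM the AS1 bars stand at 18.6% to 26.2% and those of protein-coding genes at 16.3% to 21.2%, and above it the AS1 bars stand at 33.3% and 32.4% while those of protein-coding genes are at 9.17% and 4.25%.

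Other classes of noncoding gene were counted in the same way. Of 203 tested -DT genes, divergent transcripts that start back to back with a neighbour, 66 (32.5%) were called higher and 2 lower. Of 195 intergenic LINC genes, 56 (28.7%) were called higher and 4 lower. Of 36 genes named -AS2 and up or -AS, 8 (22.2%) were called higher and 0 lower in edgeR's test, and 0 were lower at an unadjusted p under 0.05 or in DESeq2 or limma-voom. Of 6 tested -IT1 and -OT1 genes, 0 were called in either direction by edgeR, DESeq2 or limma-voom, and in each of these 0 were higher and 1 lower at an unadjusted p under 0.05. Protein-coding genes stood at 7.87% higher and 6.38% lower. Within the middle range of the members' levels, from 0.88 to 4.35 CPM, 335 of 1863 protein-coding genes (18.0%) were called higher, beside 44 of 196 members (22.4%). These members were not limited to those with 10 or more counts in every library. No test was made between these noncoding classes.

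As a share of all counts, the 394 members took 0.190%, 0.209% and 0.220% in the 3 triptolide libraries and 0.151%, 0.145% and 0.141% in the 3 untreated libraries. The groups did not overlap. The means were 0.206 ± 0.0151% with triptolide and 0.145 ± 0.00495% without (SD, n = 3 libraries each), a ratio of 1.42, and the exact two-sided permutation test gave p = 0.1, the smallest that 3 against 3 libraries allow. Without the most abundant member the ratio was 1.4. The sum holds the 24 members that met the count rule through the triptolide libraries alone, a choice that favours a higher share with triptolide. The share without these members was not taken. The sense partners together took 2.67 ± 0.0925% of counts with triptolide and 2.63 ± 0.136% without, with an exact permutation p = 0.7. At 10 or more counts, 378, 443 and 487 autosomal AS1 genes were seen in the triptolide libraries, against 326, 338 and 334 in the untreated libraries. Total counts ran from 16302961 to 23262713 per library. The lowest count of AS1 genes with triptolide was in the library with the lowest total of all. The 443 and 487 were in the libraries with totals of 22549382 and 23262713, above every untreated library. These numbers were not adjusted for depth.

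Markers of other cell types also differed between the groups. Summed CPM of 12 placental trophoblast markers was 531 to 895 in triptolide libraries and 8.42 to 9.25 in untreated libraries, and 11 of 11 tested were called higher. Blood markers summed to 12.3 to 24.2 CPM with triptolide and 2.99 to 4.04 CPM without, with 4 of 5 tested called higher, among them the globins HBA1, HBA2 and HBB. The 12 fibroblast and mesenchymal markers summed to 355 to 452 CPM with triptolide and 610 to 750 CPM without, with 6 of 11 called lower. The 7 ductal and carcinoma markers summed to 3242 to 3950 CPM with triptolide and 4383 to 6527 CPM without. Of these, 5 were tested and 2, KRT18 and VIM, were called lower. VIM is also made by mesenchymal cells, and the sum without it was not taken. Of 2 endothelial markers tested, VWF was called higher and CDH5 lower, with the 4 listed summing to 15.7 to 21.1 CPM with triptolide and 20.9 to 25.8 CPM without. No listed marker was at 0 in all libraries. The part of these differences in the AS1 values was not tested.

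The members called higher with the smallest adjusted p each had a wide gap between the groups. NAXD-AS1 (ENSG00000275880) stands opposite NAXD, which encodes the dehydratase that repairs hydrated NADH and NADPH. It had 5.92, 5.03 and 6.15 CPM with triptolide and 0.449, 0.720 and 1.10 CPM without. All triptolide libraries lay far above the highest untreated one, and in edgeR its log2 fold change was 2.90 ± 0.30 (SE), at an adjusted p of 0.000117. NAXD itself had 38.4, 32.6 and 31.4 CPM with triptolide and 30.7, 32.4 and 37.6 CPM without, and these ranges overlapped.

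NINJ2-AS1 (ENSG00000177406), opposite the gene of the adhesion protein ninjurin 2, had 8.12, 8.88 and 9.27 CPM with triptolide and 2.30, 1.16 and 1.71 CPM without. Its log2 fold change was 2.34 ± 0.25 (SE) at an adjusted p of 0.000149, and NINJ2 was too scarce to be tested. MAP3K4-AS1 (ENSG00000272841), opposite a kinase of the p38 and JNK stress pathways, had 7.49, 6.39 and 6.71 CPM with triptolide and 1.74, 2.22 and 1.71 CPM without. The groups lay far apart, with a log2 fold change of 1.86 ± 0.22 (SE) and an adjusted p of 0.000276. MAP3K4 itself had a log2 fold change of -0.20 and an adjusted p of 0.414.

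SBNO1-AS1 had 8.88, 9.01 and 8.15 CPM with triptolide and 1.85, 1.83 and 3.14 CPM without, a 3.81-fold difference with an adjusted p of 0.000415. CIRBP-AS1, opposite the gene of the cold-inducible RNA-binding protein, had 3.72, 5.73 and 5.07 CPM with triptolide and 1.46, 0.997 and 1.32 CPM without, a 3.85-fold difference with an adjusted p of 0.000624. The partners SBNO1 and CIRBP were not called, with log2 fold changes of -0.28 and -0.16. SDCBP2-AS1, opposite the gene of the membrane adaptor syntenin-2, had 8.82, 11.5 and 9.42 CPM with triptolide and 3.64, 3.44 and 2.26 CPM without, a 3.19-fold difference with an adjusted p of 0.000707. SDCBP2 itself had 1.26, 0.744 and 0.879 CPM with triptolide and 0.785, 0.277 and 0.110 CPM without, ranges that overlapped, with a log2 fold change of 1.26 and an adjusted p of 0.120. It was above 0 under all 14 alternatives and called higher under 3 of them, without a low-count filter, with a replicate block and without untreated replicate 1, with adjusted p from 0.0220 to 0.302. VIM-AS1, CCDC183-AS1 and BCAN-AS1 also belong here and are described with their partners. All of these genes kept their call under every alternative in which they were tested.

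**Figure D3:**
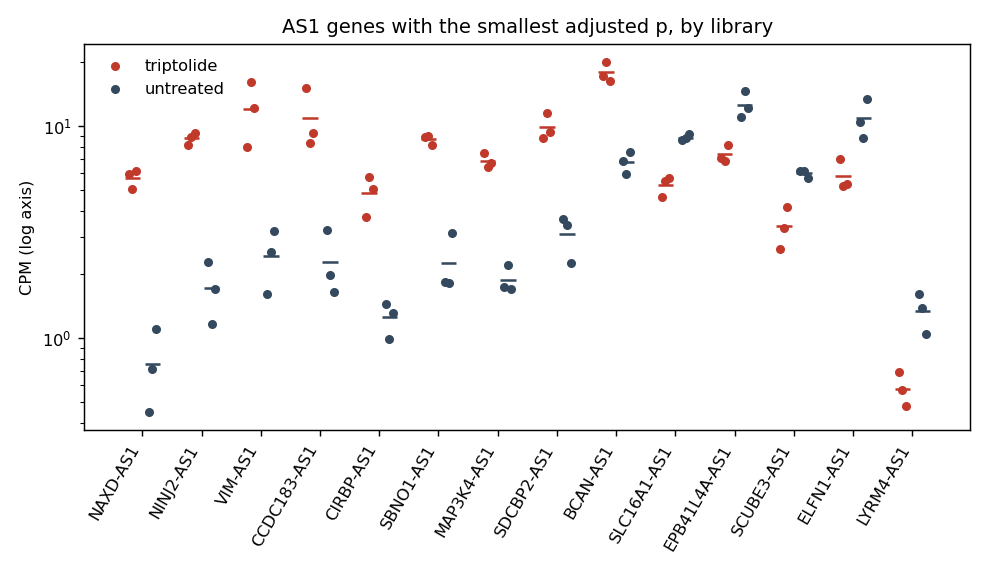
Level in CPM, on a log axis, of AS1 genes called higher with the smallest adjusted p and of the 5 called lower, with 1 point per library, triptolide to the left of untreated, and a bar at each group's mean. The groups are apart in every gene, as in NAXD-AS1, whose triptolide libraries lie at 5.03 to 6.15 CPM and untreated ones at 0.449 to 1.10 CPM.

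Sense partners as a group did not share the members' direction. Of 360 partners tested, 25 (6.94%) were called higher and 21 (5.83%) lower, close to or below the shares of all genes, and their median log2 fold change was 0.02. Unlike the members, the partners were not read against genes of like level. Of the partners tested, 359 were protein coding. Among protein-coding genes the share called higher ran from 21.2% below 1 CPM to 4.25% at 10 CPM or more. In the 345 pairs with both genes tested, 189 pairs (54.8%) had log2 fold changes of the same sign, of which 151 were both above 0 and 38 both below 0. In 127 pairs the AS1 gene was above 0 and the partner below, and in 29 pairs the reverse held. Across these 345 pairs, which share the libraries and may share reads, Pearson's r of the 2 log2 fold changes was 0.06 and Spearman's rho 0.05. Among the 88 members called higher whose partner was tested, the partner was below 0 in 41, and its median log2 fold change was 0.02. The partner was called higher in 7 of these pairs, lower in 10 and not called in 71.

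**Figure D4:**
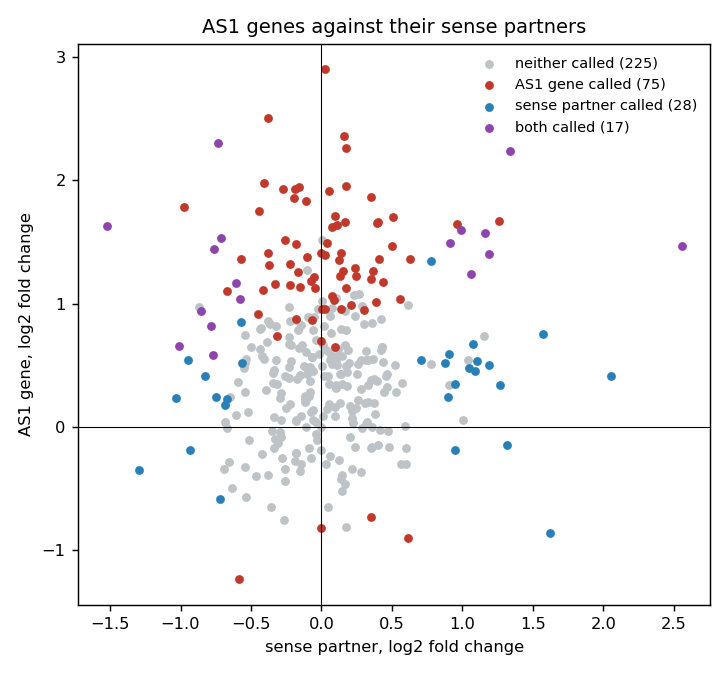
Log2 fold change of each AS1 gene (vertical) against that of its sense partner (horizontal) in the 345 pairs with both tested, coloured by which genes of the pair were called. Most called AS1 genes lie above 0 along the whole width of the plot, and Pearson's r is 0.06.

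The share of members called higher was then taken by position relative to the partner. It was 68 of 276 tested members (24.6%) with exon overlap, 20 of 71 (28.2%) with gene overlap alone and 4 of 24 (16.7%) head to head. Members whose start lay within 1 kb of the partner's start numbered 139, and 39 of the 134 tested (29.1%) were called higher and 1 lower. Of the 239 tested with starts farther apart, 53 (22.2%) were called higher and 4 lower. Same-sign pairs were 52 of 131 among close starts and 137 of 214 among distant starts, with Pearson's r of -0.15 and 0.20. In the same order, the median log2 fold change was -0.08 and 0.10 for the partners and 0.54 and 0.49 for the members. The same-sign shares depend on how many partners were above 0, and the share expected from that was not taken. Per kilobase of exon, the level of the AS1 gene was below that of its partner in 291 of 360 pairs, and the partner's level was 5.21 times that of the AS1 gene in the median pair. The log2 ratio of AS1 to partner CPM, with 0.5 CPM added to both, was higher with triptolide in 257 of 345 pairs. Its libraries were separated with triptolide higher in 126 pairs and with triptolide lower in 24. No such share was taken over other pairs of genes. Of all single genes tested, 19.8% were separated with triptolide higher and 16.9% with triptolide lower. The ratio contains the AS1 level, so these counts are not a result apart from the members' own fold changes.

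In 10 pairs the AS1 gene was called higher and the partner lower. With scaling on ribosomal protein genes none of these 10 partners was called. ROR1-AS1 (ENSG00000223949) was the most abundant of all members, with 132, 199 and 186 CPM with triptolide and 106, 116 and 106 CPM without. It was higher in all 3 triptolide libraries, with a log2 fold change of 0.66 ± 0.18 (SE) and an adjusted p of 0.0267. That call was lost when any 1 of 5 libraries, all but triptolide replicate 1, was left out and with scaling on ribosomal protein genes, with adjusted p from 0.000724 to 0.0999 over its alternatives. ROR1, a receptor tyrosine kinase-like receptor for WNT5A, had 28.1, 35.1 and 28.2 CPM with triptolide and 53.4, 60.4 and 70.4 CPM without. Its libraries were all lower with triptolide, with a log2 fold change of -1.01 ± 0.18 (SE) and an adjusted p of 0.00291. With ribosomal protein scaling ROR1 was not called, with adjusted p from 6.62e-06 to 0.0557 over its alternatives.

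VIM-AS1 (ENSG00000229124) had 7.998, 16.2 and 12.1 CPM with triptolide and 1.63, 2.55 and 3.19 CPM without. The lowest triptolide library was above the highest untreated one, with a log2 fold change of 2.30 ± 0.31 (SE) and an adjusted p of 0.000503. VIM, which encodes the intermediate filament vimentin of mesenchymal and many carcinoma cells, averaged 1358 ± 335 CPM with triptolide and 2260 ± 537 CPM without (SD, n = 3 libraries each). Its log2 fold change of -0.73 had an adjusted p of 0.0420, and the call was lost under 7 of 15 alternatives, 4 of which left out triptolide replicate 1 or 3 or untreated replicate 2 or 3, with adjusted p up to 0.157 over all of them.

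RTCA-AS1 (ENSG00000224616) starts 28 bp from RTCA in GENCODE 29 and is the closest divergent pair of the 10. It had 2.02, 2.14 and 2.92 CPM with triptolide and 0.785, 0.831 and 0.991 CPM without, a 2.72-fold difference with an adjusted p of 0.00556. RTCA, the RNA 3′-terminal phosphate cyclase, had 17.8, 25.9 and 22.1 CPM with triptolide and 33.8, 35.3 and 42.6 CPM without. The 2 genes were thus separated between groups in opposite directions, with a log2 fold change of -0.76 and an adjusted p of 0.0171 for RTCA. The call for RTCA was lost without triptolide replicate 3, without untreated replicate 3 and with ribosomal protein scaling, with adjusted p from 0.00279 to 0.246 over its alternatives.

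NOP14-AS1 had 37.0, 25.1 and 29.4 CPM with triptolide and 12.0, 14.1 and 14.6 CPM without, with an adjusted p of 0.00198. NOP14, a nucleolar protein needed to process the small ribosomal subunit, had 42.6, 49.5 and 49.3 CPM with triptolide and 74.7, 73.5 and 67.0 CPM without, with an adjusted p of 0.0215. PPP1R26-AS1 had 33.7, 40.5 and 39.8 CPM with triptolide and 21.4, 21.4 and 21.9 CPM without, with an adjusted p of 0.00561. PPP1R26, a regulatory subunit of protein phosphatase 1, had 68.8, 49.1 and 54.9 CPM with triptolide and 106, 97.1 and 93.6 CPM without, with an adjusted p of 0.00955. Both AS1 genes were thus separated upward and both partners downward. The call for NOP14 was lost under 7 of its 15 alternatives, with adjusted p up to 0.409, 3 of which left out triptolide replicate 3 or untreated replicate 1 or 2. That for PPP1R26 was lost with ribosomal protein scaling alone, at an adjusted p of 0.194, with 0.000600 as the smallest over its alternatives.

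SLC38A4-AS1 had 22.5, 31.1 and 19.8 CPM with triptolide and 11.3, 12.4 and 14.5 CPM without, with an adjusted p of 0.00945. SLC38A4, an amino acid transporter, had 3.78, 4.77 and 5.63 CPM with triptolide and 9.98, 8.87 and 6.99 CPM without, with an adjusted p of 0.0227. Its call was lost under 6 of 15 alternatives, 3 of which left out triptolide replicate 1 or untreated replicate 1 or 2, with adjusted p up to 0.275. NDUFV2-AS1 had 1.32, 2.06 and 1.44 CPM with triptolide and 0.280, 0.665 and 0.606 CPM without, with an adjusted p of 0.0107. NDUFV2, a core subunit of respiratory complex I, was counted at only 0.126 to 0.438 CPM with triptolide and 0.561 to 1.16 CPM without, and its call was lost under 7 of 14 alternatives, with adjusted p up to 0.140, 4 of which left out triptolide replicate 1 or 3 or untreated replicate 2 or 3. That level is low for a gene of the respiratory chain, and whether its reads were counted under another gene was not tested, so the opposite direction of this pair is uncertain. The remaining 3 pairs of this kind were THUMPD3-AS1, UBAC2-AS1 and ZNF566-AS1, named after their values were seen, with log2 fold changes of 0.58, 1.04 and 1.53 for the AS1 gene and -0.77, -0.58 and -0.71 for the partner. THUMPD3-AS1 lost its call under 8 of 15 alternatives, including the removal of any library but triptolide replicate 1, with adjusted p up to 0.134. UBAC2-AS1 lost it without triptolide replicate 1 or 3 or untreated replicate 1 or 2, and ZNF566-AS1 without triptolide replicate 1 or untreated replicate 1 or 3, with adjusted p up to 0.138 and 0.0973. Of the partners, THUMPD3 lost its call under 6, UBAC2 under 10 and ZNF566 under 8 of 15 alternatives, with adjusted p up to 0.360, 0.436 and 0.371. Those losses included the removal of any untreated library for THUMPD3, of any library for UBAC2, and of triptolide replicate 1 or 3 or untreated replicate 1 or 2 for ZNF566. The log2 ratio of AS1 gene to partner was higher with triptolide by 1.37 to 2.81 in the 10 pairs, a direction that the choice of pairs fixes. Starts lay within 1 kb of each other in 3 of the 10 pairs.

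**Figure D5:**
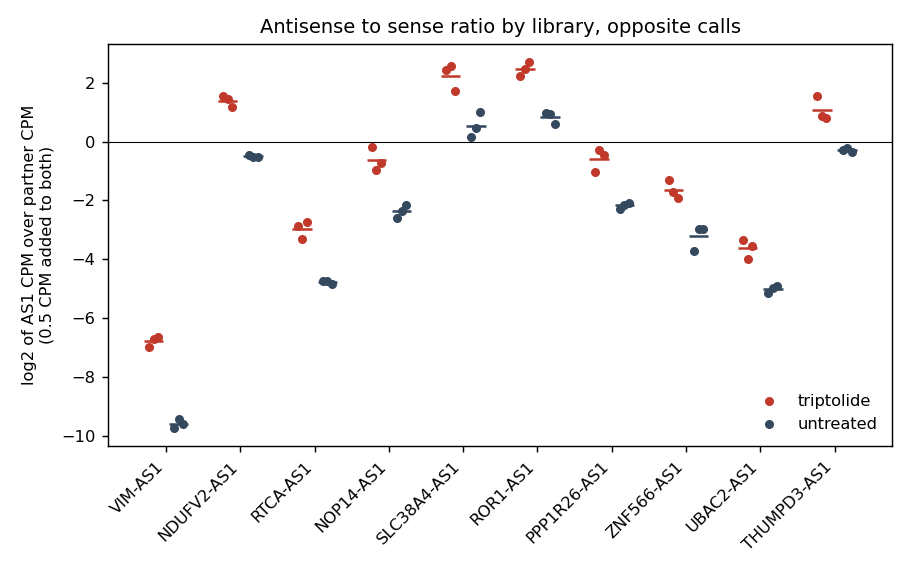
Log2 ratio of AS1 CPM over partner CPM, with 0.5 CPM added to both, in each library of the 10 pairs with the AS1 gene called higher and the partner lower, triptolide left of untreated, with bars at the group means. The pairs were chosen for these opposite calls, and the group means differ by 1.37 to 2.81.

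In 7 pairs both genes were called higher. BCAN-AS1 (ENSG00000272068) had 17.2, 20.2 and 16.4 CPM with triptolide and 6.84, 5.98 and 7.54 CPM without, with a log2 fold change of 1.399 ± 0.19 (SE) and an adjusted p of 0.000524. BCAN, which encodes the brain proteoglycan brevican and stands head to head with it, had 19.5, 10.6 and 15.6 CPM with triptolide and 7.63, 7.98 and 4.41 CPM without, with an adjusted p of 0.0120. Both genes were separated between the groups. CCDC183-AS1 had 15.1, 8.36 and 9.31 CPM with triptolide and 3.25, 1.99 and 1.65 CPM without, a 4.72-fold difference with an adjusted p of 0.000602. CCDC183, a gene for a coiled-coil protein, had 2.46, 2.63 and 2.64 CPM with triptolide and 0.953, 1.05 and 1.05 CPM without, with an adjusted p of 0.00425. The exons of these 2 genes overlap.

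EPHA2 is the most abundant partner of this kind. The gene encodes an ephrin receptor tyrosine kinase of epithelial and carcinoma cells, and had 1205, 717 and 831 CPM with triptolide and 500, 500 and 462 CPM without, with an adjusted p of 0.00908. EPHA2-AS1 had 1.32, 1.01 and 1.32 CPM with triptolide and 0.673, 0.222 and 0.386 CPM without, with an adjusted p of 0.0235. Its call was lost when triptolide replicate 1 or 3 or untreated replicate 2 or 3 was left out, with adjusted p from 0.00552 to 0.114 over its alternatives. Among the other 4 pairs, ANXA2R-AS1, DLGAP1-AS1 and SLC7A14-AS1 had log2 fold changes of 1.57, 1.24 and 1.47, and ANXA2R, DLGAP1 and SLC7A14 had 1.16, 1.06 and 2.56. TSPEAR-AS1 and TSPEAR had 1.60 and 0.99, and were named after their values were seen. The call for TSPEAR was lost without any 1 library but triptolide replicate 2, with adjusted p up to 0.133. The call for SLC7A14-AS1 was lost when triptolide replicate 1 or 3 or untreated replicate 1 or 2 was left out, with adjusted p up to 0.0970, that for ANXA2R without triptolide replicate 3 or untreated replicate 1 or 2, with up to 0.109, and that for DLGAP1 under 6 of 14 alternatives, with up to 0.131, including those without triptolide replicate 2 or 3 or untreated replicate 1 or 3. The log2 ratio of AS1 gene to partner differed by -0.16 to 1.01 in the 7 pairs, and its libraries were separated between the groups in 2 of them.

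Only 5 members were called lower. Of their partners, 4 were tested and none of these was called, and EPB41L4A was too scarce to be tested. SLC16A1-AS1 (ENSG00000226419), opposite the gene of the lactate transporter MCT1, had 4.66, 5.51 and 5.67 CPM with triptolide and 8.58, 8.75 and 9.14 CPM without. The groups were apart, and the log2 fold change was -0.74 ± 0.19 (SE) with an adjusted p of 0.0210. SLC16A1 itself had 250, 256 and 288 CPM with triptolide and 228, 225 and 170 CPM without, with an adjusted p of 0.178. EPB41L4A-AS1, a host of the small nucleolar RNA SNORA13, had 7.05, 6.87 and 8.15 CPM with triptolide and 11.0, 14.6 and 12.2 CPM without, with an adjusted p of 0.0177. ELFN1-AS1 had 6.99, 5.21 and 5.35 CPM with triptolide and 10.4, 8.81 and 13.4 CPM without, with an adjusted p of 0.0163, while ELFN1 had a log2 fold change of 0.61 and an adjusted p of 0.109. All 3 of these genes were separated between the groups. SCUBE3-AS1 had 2.65, 3.33 and 4.15 CPM with triptolide and 6.17, 6.15 and 5.73 CPM without, with an adjusted p of 0.0268. LYRM4-AS1 had 0.693, 0.569 and 0.479 CPM with triptolide and 1.63, 1.39 and 1.05 CPM without, with an adjusted p of 0.0238. LYRM4, a small protein of mitochondrial iron-sulfur cluster assembly, had a log2 fold change of -0.58 and an adjusted p of 0.0658. It was called lower under 4 of 15 alternatives, among them DESeq2, with adjusted p from 0.0293 to 0.464. With scaling on ribosomal protein genes none of the 5 was called, and each also lost its call without at least 1 library. ELFN1-AS1 lost it without triptolide replicate 3 and EPB41L4A-AS1 without untreated replicate 2, with adjusted p up to 0.140 and 0.283 over their alternatives. SLC16A1-AS1 lost it without triptolide replicate 3 or untreated replicate 1 or 2, with adjusted p up to 0.305. LYRM4-AS1 lost it without triptolide replicate 2 or 3 or untreated replicate 1 or 2, and SCUBE3-AS1 without triptolide replicate 1 or 2 or untreated replicate 1 or 2, with adjusted p up to 0.137 and 0.304.

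The most abundant members after ROR1-AS1 were mostly not called. GATA2-AS1, next to the gene of a transcription factor of blood and trophoblast cells, had 103, 59.5 and 75.6 CPM with triptolide and 63.9, 61.1 and 60.7 CPM without. The groups overlapped, and the adjusted p was 0.247. FGD5-AS1 had 36.7, 43.2 and 47.0 CPM with triptolide and 54.1, 52.5 and 49.5 CPM without, with an adjusted p of 0.240. PARD6G-AS1 was the exception, with 58.9, 57.1 and 51.6 CPM with triptolide and 22.8, 22.7 and 28.7 CPM without. It was separated by a wide gap, with a log2 fold change of 1.17 ± 0.17 (SE) and an adjusted p of 0.000870, while PARD6G, of the cell polarity complex, had 0.43 and an adjusted p of 0.117. MRPL20-AS1 and SLC9A3-AS1 had log2 fold changes of 0.09 and 0.10, with groups that overlapped.

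Among the AS1 genes listed because their function has been studied, SLC16A1-AS1 was called lower and TMPO-AS1 higher. TMPO-AS1, opposite the gene of the nuclear lamina protein LAP2, had 6.42, 12.2 and 9.03 CPM with triptolide and 4.09, 3.88 and 4.90 CPM without, with a log2 fold change of 1.11 ± 0.25 (SE) and an adjusted p of 0.0109. TMPO had a log2 fold change of -0.42 and an adjusted p of 0.203. OIP5-AS1, also called Cyrano, which in mouse directs the decay of the microRNA miR-7, had 14.6, 32.3 and 31.9 CPM with triptolide and 35.9, 40.2 and 35.4 CPM without. Its groups did not overlap, triptolide replicate 1 was the lowest library, and the adjusted p was 0.217. ZEB1-AS1, divergent from the gene of an epithelial-mesenchymal transition factor, had 8.06, 9.67 and 8.51 CPM with triptolide and 6.90, 5.82 and 5.95 CPM without. It too was separated, with a log2 fold change of 0.49 and an adjusted p of 0.1002. AFAP1-AS1, MAPKAPK5-AS1, MCM3AP-AS1, NNT-AS1 and SBF2-AS1 had log2 fold changes of 0.53, -0.17, 0.05, 0.43 and 0.04, and none was called. CDKN2B-AS1, GATA6-AS1, TGFB2-AS1 and GAS6-AS1 were below the count rule.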

How the data were processed

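RNA of 6 MIA PaCa-2 libraries was measured by poly(A)-selected paired-end sequencing. The authors deposited whole-number counts per gene, made with HISAT2 and featureCounts per the submitters' processing notes. Not given in the sources used here were tool versions, genome build, annotation and strand setting. Of 35716 IDs, 35639 were matched to a symbol. GENCODE 29 supplied gene type, exonic length, GC content and pair positions.

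In edgeR 4.0.16 under R 4.3.3, counts were filtered with filterByExpr, normalized by TMM, and compared by the quasi-likelihood test (glmQLFit, glmQLFTest) on group alone. Adjusted p-values are Benjamini-Hochberg values across the 15202 genes that passed. CPM uses TMM-scaled library sizes. The fit was tested on simulated data. Alternatives used limma 3.58.1 (voom) and DESeq2 1.42.0, other scalings, other filters, a replicate block and each library left out in turn. Members and lists were chosen with earlier results of these data known. Named members were up to 10 per direction with the smallest adjusted p, the 6 most abundant, up to 6 pairs per combination of calls, a set of studied AS1 genes, those at the edge of the count rule, and the partners of these. HNRNPU-AS1 of that set was not analysed here. One gene that the rule takes is not reported here. Library totals set the precision, and figures were drawn with matplotlib 3.10.9.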

Additional observations from a re-analysis of the deposited data

How the results depend on the processing

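AS1 genes called higher numbered 84 to 106 with DESeq2 (86), limma-voom (96), RLE size factors (93), library totals (99), a GC offset (106), no low-count filter (98) and ribosomal protein scaling (84), against 93 in edgeR's main test. With 20 counts in 3 libraries as the rule they were 74, and with the AS1 names of GENCODE 29, an alternative chosen after seeing the data, 66. Of the 93, 57 were called under every setting that tested them, and all 93 stayed above 0 under those settings. Ribosomal protein scaling put the median log2 fold change at 0.17 for all genes and at 0.69 for the members, and left 128 genes, 0 AS1 genes, 1 partner and 0 other antisense or divergent genes called lower. A mean of at least 5 CPM left 584 genes higher and 336 lower, 30 AS1 genes higher and 3 lower, 14 partners higher and 9 lower, and 11 other antisense or divergent genes higher and 1 lower, with fewer genes tested. The GC offset gave 1802 genes lower, 41 partners higher and 49 lower, and 5 other antisense or divergent genes lower. Library totals gave 11 partners and 1 other antisense or divergent gene lower, and no filter 34 and 4. Other than where fewer genes were tested, the cause was not tested. Leaving out 1 library at a time gave 953 to 1580 genes higher and 407 to 1034 lower, 62 to 87 AS1 genes higher and 1 to 6 lower, 16 to 26 partners higher and 5 to 25 lower, and 41 to 69 other antisense or divergent genes higher and 0 to 2 lower. AS1 genes higher were 62 without untreated replicate 2, 68 without triptolide replicate 3, 73 without untreated replicate 1, 80 without untreated replicate 3, 84 without triptolide replicate 2 and 87 without triptolide replicate 1. The difference in the log2 ratio of EPHA2-AS1 to EPHA2, triptolide minus untreated, was 0.52 with 0.1 CPM added, 0.03 with 0.5 CPM and -0.47 with 2 CPM. Same-numbered libraries had deviations from the group means that correlated at 0.03, -0.04 and -0.44. These values were not tested and do not settle whether the numbers pair the libraries. With a replicate block 96 AS1 genes were called higher and 5 lower. Of 73 named genes, 48 stayed on the same side of the threshold under every alternative. Counts near 10 per library limit what could be called among the scarcest members.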
